A study of Mus musculus with 4 samples.

Results

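The muscarinic acetylcholine receptors M1 to M5, encoded by Chrm1, Chrm2, Chrm3, Chrm4 and Chrm5, were examined in the globus pallidus of mice that had received cocaine or saline. The 5 genes were taken by symbol from spots whose platform annotation gives exactly 1 gene, and the spots of a gene were averaged. They are 5 of 19087 genes with 1 symbol on the array, and they hold 8 of 45018 spots. Chrm1, Chrm3 and Chrm4 have 2 spots each, and Chrm2 and Chrm5 have 1 each.

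Muscarinic receptors are G protein-coupled receptors for acetylcholine. M1, M3 and M5 act through Gq/11, which activates phospholipase C, releases calcium and closes M-type potassium channels. M2 and M4 act through Gi/o, which lowers cyclic AMP, opens inwardly rectifying potassium channels and inhibits presynaptic calcium channels. In the basal ganglia M1 is made by most striatal projection neurons, M4 chiefly by those that carry the D1 dopamine receptor, M2 by cholinergic neurons as an autoreceptor, and M5 by midbrain dopamine neurons. The globus pallidus receives acetylcholine from scattered cholinergic neurons of the basal forebrain and from the brainstem.

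The mice were males of the inbred C57BL6 background. They had gone through conditioned place preference, a test of how strongly an animal comes to favour a chamber where it was given a drug. Cocaine mice, dosed at 15 mg/kg on days 2, 3 and 4, were animals with a low preference score, and saline mice got the vehicle on the same days. Each of 4 two-colour arrays set 1 cocaine mouse against 1 saline mouse. The cocaine mouse was labelled with Cy5 on arrays 1 and 3 and with Cy3 on the other two. Animal codes differ between all channels, so the arrays count as 4 biological replicates of 1 group. Every cocaine mouse here scored low, so the drug and the low preference cannot be told apart.

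The values are log2 ratios of the channels of an array. The authors had very likely turned them to 1 treatment direction, since arrays of opposite dye orientation correlated below 0 over all spots (Pearson r from -0.96 to -0.83). Cocaine over saline is the likely direction, from the order in which the design text names the treatments. A negative value therefore means lower in the cocaine mouse under that reading, and with saline in the numerator every sign would be the opposite. All 13 pallidal neuron markers measured, among them Gad1, Pvalb and Nkx2-1, had a spot above background. So did 12 of 13 markers of striatal projection neurons, the cells of the adjoining striatum, and 10 of 13 cortical and thalamic neuron markers. Of all genes 76.4% had such a spot, so these counts alone do not identify the tissue. In such bulk tissue, fewer cells of a type and less RNA per cell cannot be told apart.

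No intensities were used here, so detection was judged from the dye bias of a spot, which is the Cy5 over Cy3 log2 ratio averaged over both dye orientations (Cy3 over Cy5 if saline was the numerator). The values form a narrow peak below 0 and a wide spread above it. The narrow peak was read as dim spots and larger values as brighter ones, a reading that was not tested against signal. On that reading spots were taken as above background beyond 0.023, and a wider limit lay at 0.087. The dye bias of one Chrm1 spot was 0.84, and it was the only muscarinic spot far from the dim peak. The other Chrm1 spot, at -0.18, lay at the centre of that peak. Both Chrm4 spots were above either limit, at 0.25 and 0.22. The Chrm3 spots, at 0.060 and 0.038, were above the first limit and below the wider one. Chrm2, at -0.12, and Chrm5, at -0.037, were below both. The dye difference, fitted on the deposited values, was past the test for Chrm1 alone of the 5 genes, at 0.33 (SE 0.063, adjusted p 0.0097 by limma), where 66.3% of all features passed. By the stand-in 3 of 5 receptor genes were above background, against 76.4% of all genes, and 2 were above the wider limit. If such spots hold mostly background, their ratios understate any difference in the transcript. The values of Chrm2 and Chrm5 below are therefore ratios of spots not above background and give no fold for the transcript.

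**Figure D1:**
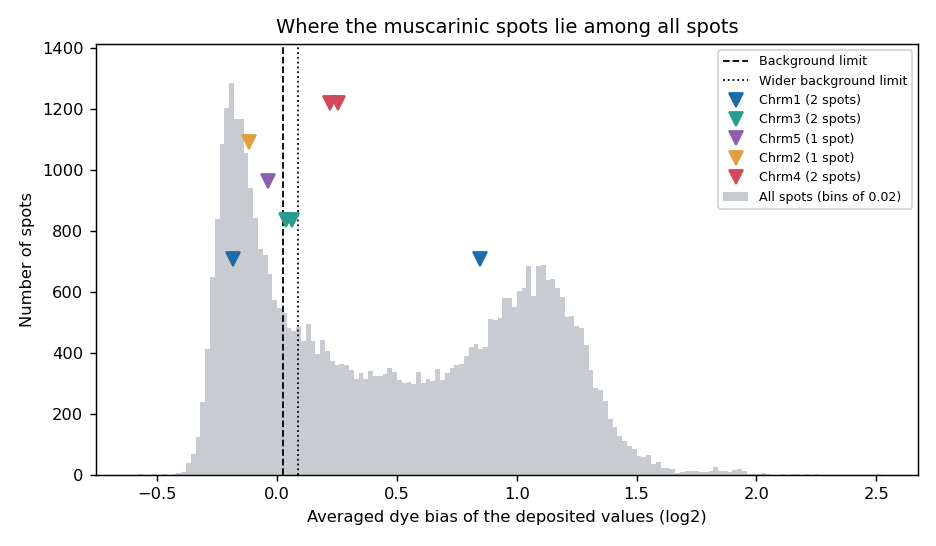
Averaged dye bias of all spots (grey bars, number of spots per bin of 0.02 on the log2 scale) with the muscarinic spots as triangles, whose height only separates the genes. The dashed and dotted lines are the limits at 0.023 and 0.087, and 3 of the 8 muscarinic spots, one of Chrm1 and both of Chrm4, lie to the right of both lines.

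The comparison asked whether any muscarinic receptor transcript differed between cocaine mice with a low score and saline mice. None passed the test. Normalized log2 ratios, from which the dye bias of each array was removed, ran from -0.11 for Chrm4 to 0.0063 for Chrm3. This step brings the mean of arrays 1 and 3 close to that of arrays 2 and 4 for each spot, so the 4 values of a gene are not independent. Of the receptor genes 0 of 5 had an adjusted p under 0.05 by limma, where 0% of all 30452 features did. At an unadjusted p under 0.05 there were also 0 of 5, against 1.74% of all features. Chrm1, Chrm2, Chrm4 and Chrm5 had a mean below 0, 4 of 5, and 52% of all genes did. The median over the 5 genes was -0.025, beside -0.0028 over all genes. The 95% intervals of the 5 genes lay within -0.26 and 0.13 on the log2 scale, so ratios below 0.834 lay outside each interval of a gene mean. For genes at or near background this bound holds for the ratio of the spot, not for the transcript. For Chrm4 it holds for the mean of 2 spots that disagreed, and the interval of the lower spot alone reached -0.59.

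Among the Gq/11-coupled receptors, Chrm1 encodes M1, the main postsynaptic muscarinic receptor of forebrain neurons. Its normalized log2 ratios were -0.034, -0.076, -0.022 and 0.033 on arrays 1 to 4. Arrays 1 to 3 were slightly below 0 and array 4 slightly above. The mean was -0.025 (SE 0.049, n = 4 arrays), which is a ratio of 0.983 with a 95% interval from 0.902 to 1.07, and the limma adjusted p was 0.999. The spread over arrays was small, with an SD of 0.045 against a median of 0.089 over all genes. By the dye bias alone, this gene value averages a spot read as bright and a spot read as dim, at background. The bright spot alone had deposited log2 ratios of 0.53, -0.76, 1.02 and -1.08, whose alternating sign follows the dye. After normalization it stood at -0.18, -0.099, 0.044 and -0.0059, with a mean of -0.059 (SE 0.063). Arrays 1 and 2 were below 0 and arrays 3 and 4 within 0.05 of it, and the interval from -0.22 to 0.099 included 0. The dim spot stood at 0.11, -0.054, -0.089 and 0.071, with no common sign.

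Chrm3 encodes M3, known best from glands and smooth muscle and also present in brain. The gene stood at -0.019, 0.062, 0.040 and -0.058 on arrays 1 to 4. Arrays 2 and 3 were above 0 and arrays 1 and 4 below, and the mean was 0.0063 (SE 0.050, limma adjusted p 0.999). Its spots had means on either side of 0, at 0.059 (SE 0.066) and -0.046 (SE 0.055). The spot with the higher mean reached 0.19 on array 2 and -0.083 on array 4. The spot means differed by 0.11, and both intervals included 0.

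Chrm5 encodes M5, the receptor of midbrain dopamine neurons. Its only spot, which was below background, stood at 0.095, -0.029, -0.11 and 0.0070 on arrays 1 to 4. The highest and the lowest value came from arrays 1 and 3, which share a dye orientation. The mean was -0.0080 (SE 0.056), and the limma adjusted p was 0.999.

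Among the Gi/o-coupled receptors, Chrm2 encodes M2, the autoreceptor of cholinergic terminals. It stood at -0.045, -0.016, -0.057 and -0.092 on arrays 1 to 4, below 0 on each. It was the only receptor gene with 1 sign on all arrays, and 14.8% of all genes had that. The mean was -0.053 (SE 0.047, limma adjusted p 0.999). Its single spot was below background, with deposited log2 ratios of -0.12, 0.11, -0.17 and 0.064.

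Chrm4 encodes M4, the receptor that opposes D1 signalling in striatal projection neurons. It had the largest difference of the receptor genes. Its normalized log2 ratios were -0.045, 0.00054, -0.17 and -0.22 on arrays 1 to 4. Arrays 3 and 4 were clearly below 0, array 1 slightly below and array 2 at 0. The mean was -0.11 (SE 0.060, n = 4 arrays), a ratio of 0.927 with a 95% interval from 0.834 to 1.03. The unadjusted p by limma was 0.13 and the adjusted p 0.999. By absolute log2 ratio Chrm4 lay at percentile 89.0 of all genes, and 1294 genes had a smaller p.

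**Figure D2:**
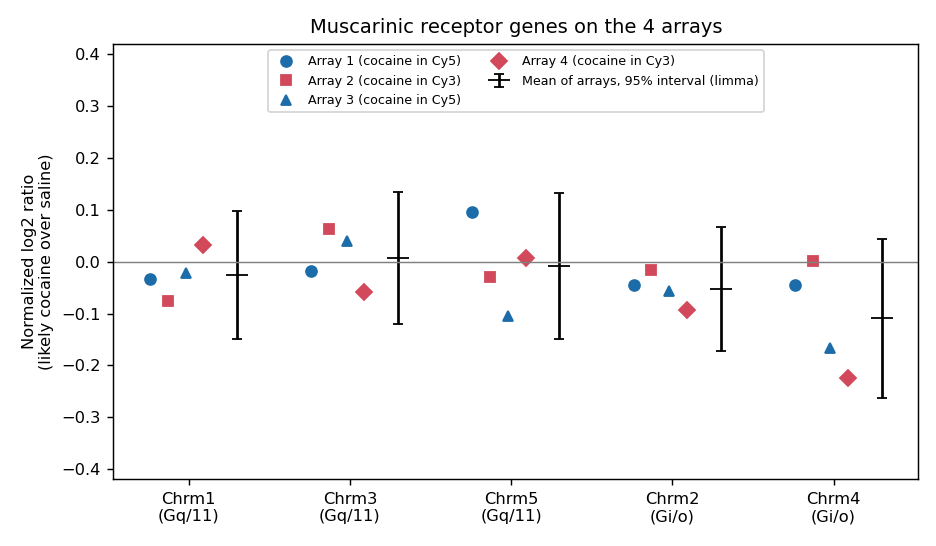
Normalized log2 ratio of each muscarinic receptor gene on each array (blue, cocaine in Cy5; red, cocaine in Cy3), with the mean and its 95% interval from limma in black. All 5 intervals cross 0, and Chrm4, with a mean of -0.11, lies lowest.

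The gene mean of Chrm4 hides a division between its spots, both annotated to the same transcript. The first spot had deposited log2 ratios of -0.058, -0.13, -0.017 and -0.96 on arrays 1 to 4. The second had 0.41, -0.14, 0.23 and -0.11. After normalization the first stood at -0.29, 0.017, -0.31 and -0.63, and the second at 0.20, -0.016, -0.024 and 0.18. The first was far below 0 on arrays 1, 3 and 4, where the second was above 0 or close to it, and on array 2 both were near 0. On array 4 the first spot lay at percentile 0.280 of all spots and on array 3 at percentile 0.478, while the second lay at percentile 93.7 on array 4 and 39.3 on array 3.

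Fitted alone, the first Chrm4 spot had a mean of -0.30 (SE 0.11) with an interval from -0.59 to -0.021. No other muscarinic spot had an unadjusted p under 0.05, which 1.67% of all spots had. Its unadjusted p was 0.040 and its adjusted p 0.9999 by limma. The second had a mean of 0.086 (SE 0.069, adjusted p = 0.9999). Their means differed by 0.39, and among 4113 genes with exactly 2 spots above background the median gap was 0.061, which put Chrm4 at percentile 99.8. In the deposited values the second exceeded the first by 0.47, -0.0095, 0.25 and 0.85 on arrays 1 to 4. The mean of these differences was 0.39 ± 0.37 (SD, n = 4 arrays), and an exact sign-flip permutation test, two-sided, gave p = 0.25, where 0.125 is the smallest p that 4 arrays allow. With 4 arrays this test could not reach 0.05, so it decides nothing. The sign of Chrm4 depends on which spot is read.

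**Figure D3:**
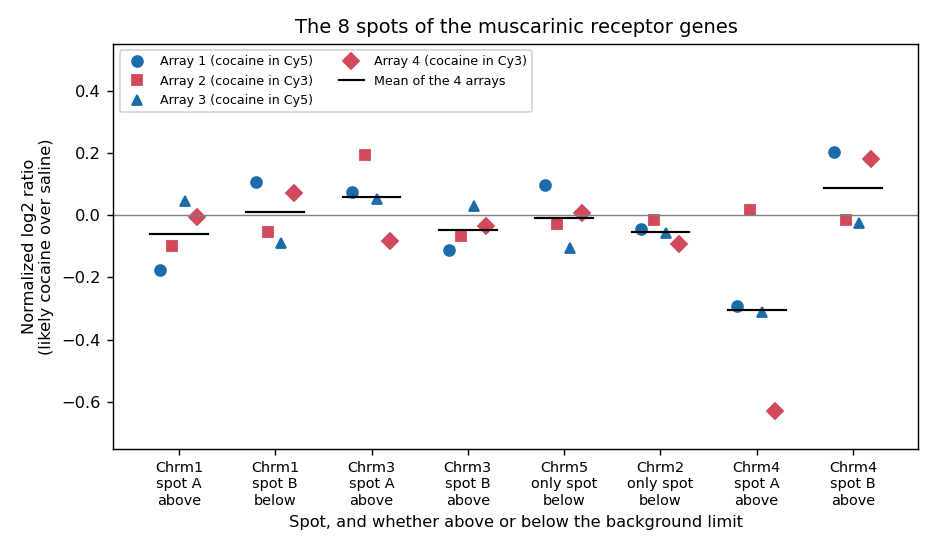
Normalized log2 ratio of each of the 8 muscarinic spots on each array (blue, cocaine in Cy5; red, cocaine in Cy3), with the mean over arrays as a black line; spot A has the larger dye bias of a gene's spots. The Chrm4 spots stand apart from each other, with means of -0.30 and 0.086, and the other 6 have means between -0.059 and 0.059.

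The start region of Chrm4 is shown for reference because this gene had the largest difference of the family, and the array ratios do not measure the promoter. The window of 300 bases around the annotated start lies at chr2:91921939-91922238 on the plus strand of GRCm38.p6, from RefSeq. Capitals mark the GC box GGGCGG and the CCAAT box, each searched on both strands, and a pair of GC boxes overlaps.
Chrm4: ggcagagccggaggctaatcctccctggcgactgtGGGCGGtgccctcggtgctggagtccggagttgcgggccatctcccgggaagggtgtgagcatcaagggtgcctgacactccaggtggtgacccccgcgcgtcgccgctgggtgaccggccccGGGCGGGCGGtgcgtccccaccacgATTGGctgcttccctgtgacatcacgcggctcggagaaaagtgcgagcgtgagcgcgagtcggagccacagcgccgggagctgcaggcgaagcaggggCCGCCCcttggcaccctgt
The window holds 4 GC boxes and 1 CCAAT box, no TATAAA and no TGACGTCA. Of 32841 windows of the same length, 35.7% held a GC box, 37.4% a CCAAT box, 13.6% TATAAA and 1.79% TGACGTCA. Its GC content of 70.7% exceeded that of 91.4% of these windows. The windows of Chrm2 and Chrm3 had GC contents of 52.7% and 57.3%, and that of Chrm2 held 1 GC box and 1 CCAAT box. Chrm1 had no window. Those of Chrm3 and Chrm5 lay wholly inside the annotated gene, so their place relative to the main start is uncertain, and that of Chrm5 is not described.

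Of the 3 receptor genes above background, Chrm4 had the lowest mean ratio, followed by Chrm1 and Chrm3, and their intervals overlapped.

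M1 and M4 are transcripts of striatal neurons too, so the level of striatal markers was set beside them. The median of 13 striatal projection neuron markers was 0.054, 0.26, 0.13 and -0.17 on arrays 1 to 4. Drd1, the D1 dopamine receptor, stood at 0.13, 0.89, 0.44 and -0.30, and Drd2, the D2 receptor, at -0.39, -0.12, 0.18 and -0.072. Ppp1r1b, the phosphoprotein DARPP-32, stood at -0.32, -0.0084, 0.20 and -0.0997. On array 2, where Drd1 was highest, Chrm4 was at 0.00054, and on array 4, where Drd1 was lowest, Chrm4 was lowest too. The gene value on array 4 averages a Chrm4 spot at -0.63 and one at 0.18, so this held for the first spot only. Arrays 2 and 4 share a dye orientation whose mean the normalization ties to that of arrays 1 and 3, so they count as 1 contrast. On array 3 Drd1 was above 0 and Chrm4 below it. Chrm1 was lowest on array 2, at -0.076, and highest on array 4, at 0.033, the reverse of Drd1. Its spot with the larger dye bias was lowest on array 1 instead, at -0.18. The part of striatal tissue in the Chrm1 and Chrm4 values was not tested.

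Acetylcholine supply and breakdown genes all had a mean below 0, 7 of 7, where 52% of all genes did, and 0 passed. Their median log2 ratio was -0.15, beside -0.0028 over all genes. Colq and Bche, 2 of the 7, were below background. Basal forebrain cholinergic neuron markers, a list that shares Ache, Slc18a3, Slc5a7 and Chat with this one, had 8 of 9 means below 0. Its median was also -0.15, but both medians are the value of the same gene, Slc18a3, so they are not separate results. The medians of the cholinergic marker list were -0.091, -0.0099, -0.018 and -0.14 on arrays 1 to 4. Without replicate 4 its median was -0.034, and its part in the supply genes was not tested. Ache, the enzyme that degrades acetylcholine at the synapse, stood at -0.29, -0.30, -0.17 and -0.14 on arrays 1 to 4, below 0 on each, as in 6.76% of all genes. Its mean was -0.23 (SE 0.056), with an unadjusted p of 0.0088 and an adjusted p of 0.999 by limma, and it was 1 of 7 with an unadjusted p under 0.05 on the lower side, against 0.671% of all genes. Slc18a3, which loads acetylcholine into vesicles, had a mean of -0.15 (SE 0.065), and its dye bias of 0.054 lay under the wider background limit.

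Slc5a7, the high-affinity choline transporter, was the most uneven of these genes. On arrays 1 and 4 it stood at -1.89 and -1.62, whereas arrays 2 and 3 gave -0.075 and 0.21. Its mean of -0.84 (SE 0.41) had an interval from -1.88 to 0.19. Arrays 1 and 4 held nearly all of the difference, and the adjusted p was 0.999 by limma. These arrays have opposite dye orientations, whose means the normalization ties, so their low values are not independent of each other. Chat, which makes acetylcholine, had a mean of -0.0091 (SE 0.051). It stood at -0.00057, 0.060, -0.011 and -0.085, and its dye bias of 0.036 lay under the wider background limit. Ngfr, a neurotrophin receptor of cholinergic neurons chosen after its values were seen, stood at -0.42, 0.17, -0.018 and -0.58. The median of the supply and breakdown genes depended on single arrays and was -0.039 without replicate 2 and -0.060 without replicate 3.

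Downstream of the Gq/11-coupled receptors 12 genes were measured, 6 with a mean above 0 and 6 below, with a median log2 ratio of -0.0094 and 0 past the test. Gna14, a Gq-class alpha subunit, stood at 0.11, 0.091, 0.14 and 0.16. Its spot was below background. No other gene of this list had an unadjusted p under 0.05, which 0.849% of all genes had on the higher side. The unadjusted p of Gna14 was 0.042 and its adjusted p 0.999 by limma. Prkca, a protein kinase C, had a mean of 0.13 (SE 0.062), and Plcb3, a phospholipase C beta, -0.068 (SE 0.051).

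Downstream of the Gi/o-coupled receptors 3 of 12 genes had a mean above 0 and 9 below, where 52% of all genes were below, and 0 passed the test. The median was -0.038, beside -0.0028 over all genes, and it was 0.0011 without replicate 1. The 3 with the smallest p were the adenylyl cyclases Adcy3, at -0.17 (SE 0.10), and Adcy2, at -0.17 (SE 0.12), and the G protein subunit gene Gnaz, at -0.15 (SE 0.13). Each was lowest on array 1 and above 0 on array 3. Adcy2, for one, stood at -0.55, -0.11, 0.19 and -0.23 on arrays 1 to 4. Chrm4 was instead lowest on arrays 3 and 4, in a mean of 2 spots that disagreed. Like these 3 genes, it was lower on array 4 than on array 2. A link between them was not tested.

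Receptor kinases, arrestins and RGS proteins, which end receptor or G protein signalling, had 7 of 13 means above 0 and a median of 0.0079. Rgs9, the striatal RGS protein and also one of the striatal markers, had a mean of 0.13 (SE 0.060) and was above 0 on all arrays. Rgs14 had 0.27 (SE 0.15) and stood at -0.13, 0.49, 0.66 and 0.063 on arrays 1 to 4. Grk6, a receptor kinase, had -0.079 (SE 0.068). None of this list had an unadjusted p under 0.05.

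Channels under muscarinic control had 6 of 11 means above 0 and a median of 0.0020. Kcnj4, an inward rectifier of striatal and cortical neurons, stood at -0.065, 0.41, 0.77 and 0.29 on arrays 1 to 4. Its mean was 0.35 (SE 0.14), and its unadjusted p by limma was 0.0499, the only one under 0.05 in this list. Markers of cortical and thalamic neurons had medians of -0.20, 0.080, 0.22 and 0.090 on the same arrays, low on array 1 and highest on array 3 as Kcnj4 was. Since the normalization ties the means of both orientations, low on array 1 and high on array 3 count as 1 contrast. The part of these markers in the Kcnj4 value was not tested. Cacna1c, an L-type calcium channel, had 0.0997 (SE 0.056), and Kcnq3, a subunit of the M-type potassium channel, -0.060 (SE 0.047). Over the 5 pathway lists 0 of 55 genes passed over all features, and 3 had an unadjusted p under 0.05, against 1.52% of all genes.

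**Figure D4:**
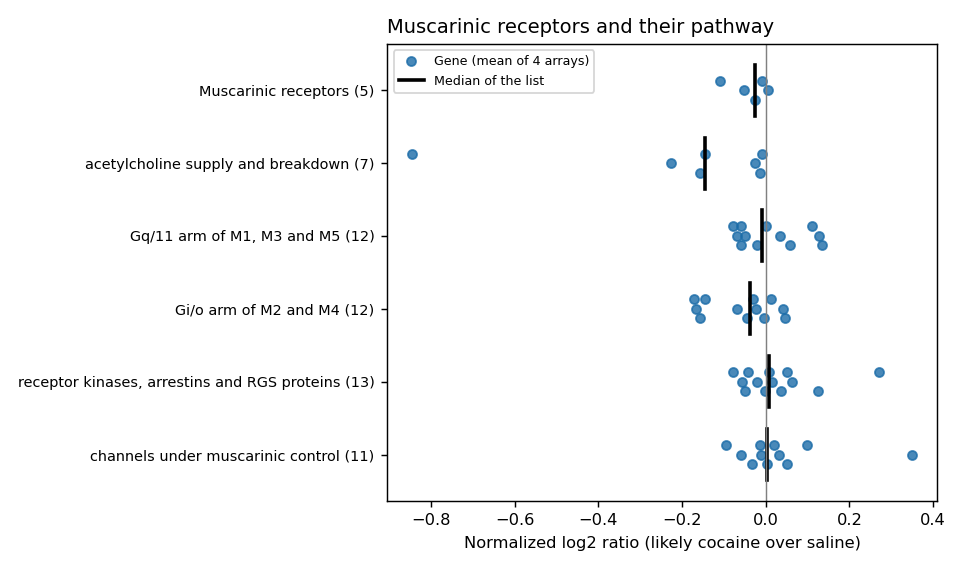
Normalized log2 ratio of each gene (points, mean of 4 arrays, spread vertically only to be seen) and the median of each list (black bars) for the muscarinic receptors and 5 pathway lists, with the number of genes in parentheses. The receptors lie between -0.11 and 0.0063, and Slc5a7, at -0.84, is the point farthest from 0.

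Chrm4 had the largest range of the receptor genes over arrays, 0.22, so the genes most like it were sought by root mean square difference over the 4 array values. The nearest were P4ha3 at 0.0090, Eras at 0.016, Adamts10 at 0.017, Slc15a5 at 0.020 and Olfr56 at 0.029, of which Adamts10 alone was above background. With 54 genes within 0.05, likeness over 4 arrays is a loose criterion. The Chrm4 values matched here are the mean of 2 spots that disagreed, and likeness to either spot alone was not sought.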

How the data were processed

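The authors deposited log2 ratios, 1 for every spot on each of the 4 arrays. Agilent Feature Extraction is named in the submitters' processing notes, and other steps were not given in the sources used here. Aliquots of 75 ng of total RNA were amplified and labelled with Cy3 or Cy5, per the labels' protocols. Of 5000 values drawn from array 3, 98.7% equalled log2(a/b) for some whole numbers a and b within 2e-13, against 0.020% after a small shift, so the scale was read as log2 and the values as ratios of raw signals. The other arrays were taken to be alike. The deposited medians, 0.33, -0.25, 0.49 and -0.56 on arrays 1 to 4, showed that the authors had not centred the log2 values.

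Spots at 0 on every array (202) were left out. For normalization, a loess curve (span 0.3) of each array against the orientation-averaged dye bias was subtracted. A treatment effect drops out of that average. This brings the means of both orientations together for each spot, so the 4 values of a gene are not independent, and the SE rests on the differences within an orientation. The background limit is the mode of the dye bias plus 3 SDs, the SD taken from the median distance below the mode (wider limit: from the root mean square). All 30452 features were fitted with limma 3.58.1 in R 4.3.3 (treatment and dye terms, eBayes, 5.21 degrees of freedom), with Benjamini-Hochberg adjustment over all of them and a threshold of 0.05. The script was tested on simulated data. Symbols came from the platform annotation, and by Entrez identifier 33517 of 33653 spots with 1 symbol matched RefSeq genes. Spots with several symbols (56) or none (11511) stayed unnamed.

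Named were the 5 receptors, the 3 genes of each pathway list with the smallest p, the 5 genes most like the receptor with the largest range, and Drd1, Drd2, Ppp1r1b, Adora2a, Gad1, Pvalb, Chat, Slc18a3, Slc5a7 and Ache by name. Adora2a was not analysed here. The members and lists were chosen with earlier results of these data known. With 4 arrays, their number limits the precision. Alternatives changed the normalization, loess span, dye term, background filter, averaging of spots, variance model and single arrays.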

Additional observations from a re-analysis of the deposited data

How the results depend on the processing

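Under 61 alternative fits of the 5 receptor genes, 0 gave an adjusted p under 0.05, and the smallest was 0.747. In 52 of them the sign was kept. With spots above background alone, Chrm2 and Chrm5 had no value, nor had Chrm3 with the wider limit. With single spots in place of the gene mean, the spot with the smaller dye bias turned the sign for Chrm1 (0.0091), Chrm3 (-0.046) and Chrm4 (0.086). Chrm5 was 0.015 with each array centred on its median and 0.016 with no normalization. When each array in turn was left out, the ratio moved between -0.062 and -0.0062 for Chrm1, -0.067 to -0.033 for Chrm2, -0.017 to 0.041 for Chrm3, -0.16 to -0.047 for Chrm4 and -0.059 to 0.046 for Chrm5. Chrm3 was -0.017 without replicate 2 and -0.010 without replicate 3, and Chrm5 was 0.0019 and 0.046 without these. Chrm4 was -0.047 without replicate 4. The count of 0 features past the test rose to 18 under median centring and to 60 once the least variable features were removed, an alternative chosen after seeing the data, as was the wider background limit. In these 2 settings the 5 receptor genes had the same SE, 0.11 under median centring and 0.091 without the least variable features. The fit thus gave them 1 common variance in place of their own. The cause of the changed counts was not tested.

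Without single arrays the median of the acetylcholine supply list ranged from -0.17 to -0.039, that of the cholinergic neuron markers from -0.19 to -0.034 and that of the pallidal markers from -0.068 to 0.036. The supply median was -0.038 with each spot fitted on its own. The pallidal median was -0.048 with median centring and -0.047 with no normalization.

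The dye coefficient with each array centred on its median was -0.077, -0.52, -0.36, -0.17 and -0.45 for Chrm1 to Chrm5, which the centring itself brings about by moving the zero. Without single arrays this coefficient ranged from 0.30 to 0.36 for Chrm1, not past the test without replicate 3, from 0.14 to 0.34 for Chrm4, past it without replicate 2, and from -0.092 to 0.017 for Chrm5. Each ratio already pairs a cocaine with a saline mouse, so no further replicate block was fitted.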
